A study of Mus musculus with 2 samples.

Results

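The Sox genes examined in single nuclei of the fetal mouse brain were 8 transcription factor genes and 2 long noncoding transcripts that overlap 2 of them. They are Sox1, Sox2, Sox3, Sox4, Sox5, Sox6, Sox9 and Sox11, with Sox2ot and Sox1ot (Sox2 and Sox1 overlapping transcript). The members were the features with one of these symbols, each found once, so 10 of 55416 features. SOX proteins bind DNA through a shared HMG box. The SoxB1 group (Sox1, Sox2, Sox3) is known for keeping neural progenitors undifferentiated, the SoxC group (Sox4, Sox11) for neuronal differentiation, the SoxD group (Sox5, Sox6) for the identity and timing of neurons, and Sox9, of the SoxE group, for radial glia and astrocytes. The overlapping transcripts run through the loci of Sox2 and Sox1, and their roles are less settled.

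The nuclei came from whole brain of fetal mice of 2 genotypes, wildtype and Cav1 KO, with 1 library each and no treatment named. The day of gestation, the strain, the design of the knockout allele and the number of animals behind a library are not given in the sources used here. Cav1 encodes caveolin 1, a membrane protein of caveolae. Nuclei were captured by droplets with chemistry that reads the 3′ end of RNA, and each captured RNA carried a unique molecular identifier (UMI), so that PCR copies were counted once.

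The wildtype-labelled library kept 6151 nuclei with a median of 2071 UMIs, and the knockout-labelled library 6146 nuclei with a median of 2292. Cav1 itself had 57 and 68 UMIs, 3.89 and 3.94 CPM (a gene's UMIs relative to all UMIs of the nuclei summed, set to 1 common total), and so did not separate the libraries by their labels. Counts from the 3′ end do not show whether an exon elsewhere in the gene is missing, and why Cav1 was alike in the libraries was not tested. Cav2, checked beside Cav1, did differ, with 16 and 660 UMIs, or 1.09 and 38.2 CPM. Its log2 ratio of the knockout-labelled to the wildtype-labelled library was 5.13 (4.42 to 5.94), and the cause was not tested. Of 43 barcodes found in both deposited libraries, 8 were kept in both. Nuclei were clustered without the 10 members and named from marker lists. Names with the ending -like are rebuilt here from those markers and are not the authors' annotation. With 1 library per genotype no difference has a replicate check. Intervals in parentheses cover the error of counting at 95% confidence only, and values are given with the wildtype-labelled library first.

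Several classes differed in size between the libraries. Radial glia-like nuclei, the stem cells of the developing brain, numbered 614 and 565, and dividing radial glia-like nuclei 164 and 129. Intermediate progenitor-like nuclei numbered 190 and 108. Cortical excitatory neuron-like nuclei were 24.8% of the wildtype-labelled library (1524 nuclei) and 17.3% of the knockout-labelled library (1063 nuclei). Forebrain inhibitory neuron-like nuclei numbered 845 and 692, and their dividing counterparts 158 and 132. Some progenitor genes were higher in the dividing ones, as Notch1 at 176 and 168 CPM against 32.3 and 43.5 CPM in the others. Gli3 was at 335 and 303 CPM against 20.8 and 31.7 CPM, while Nes, at 45.5 and 21.4 against 37.6 and 31.0 CPM, was not higher in both libraries. Dcx, a neuronal gene, was at 312 and 343 CPM against 585 and 525 CPM. The name of the dividing class gives its marker list only. Whether these dividing nuclei are neurons or progenitors was not tested. A cluster of low UMI counts without a name, with medians of 741.5 and 706 UMIs, held 10.3% and 15.7% of nuclei.

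Of the factor genes, Sox1, Sox2, Sox3, Sox4 and Sox11 have 1 exon in the GENCODE M39 annotation of GRCm39. Sox1 lies on the plus strand at chr8:12445295-12450126, inside Sox1ot at chr8:12373650-12486768. Sox2 lies on the plus strand at chr3:34704554-34706610, inside Sox2ot at chr3:34158419-34789489. Both long transcripts run on the same strand as the factor they enclose. Sox3 (chrX:59934972-59937036), Sox4 (chr13:29132902-29137696) and Sox11 (chr12:27384263-27392573) are on the minus strand. Sox9, at chr11:112673009-112678586 on the plus strand, has 3 exons. Sox5 (chr6:143774151-144727703) and Sox6 (chr7:115070106-115638860) span 954 and 569 kb on the minus strand, most of it intron.

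Sox1 with Sox2, and Sox4 with Sox11, were the pairs of factors with the closest patterns over classes (given with each pair). The 250 bases before their start sites are therefore shown 5′ to 3′ on the gene's strand, read from the GRCm39 sequence. Capitals mark CCAAT, the motif of NF-Y, or ATTGG where the match is on the other strand. The windows are chr8:12445045-12445294 for Sox1, chr3:34704304-34704553 for Sox2, chr13:29137697-29137946 for Sox4 and chr12:27392574-27392823 for Sox11.
Sox1: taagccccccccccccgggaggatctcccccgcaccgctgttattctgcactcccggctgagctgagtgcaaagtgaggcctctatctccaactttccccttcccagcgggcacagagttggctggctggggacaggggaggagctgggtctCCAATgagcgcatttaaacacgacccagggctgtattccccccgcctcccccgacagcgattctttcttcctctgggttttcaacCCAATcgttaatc
Sox2: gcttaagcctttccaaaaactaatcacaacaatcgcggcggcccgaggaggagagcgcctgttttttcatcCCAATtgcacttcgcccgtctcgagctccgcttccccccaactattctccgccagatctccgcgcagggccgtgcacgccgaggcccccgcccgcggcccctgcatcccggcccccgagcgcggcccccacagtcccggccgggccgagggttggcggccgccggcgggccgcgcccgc
Sox4: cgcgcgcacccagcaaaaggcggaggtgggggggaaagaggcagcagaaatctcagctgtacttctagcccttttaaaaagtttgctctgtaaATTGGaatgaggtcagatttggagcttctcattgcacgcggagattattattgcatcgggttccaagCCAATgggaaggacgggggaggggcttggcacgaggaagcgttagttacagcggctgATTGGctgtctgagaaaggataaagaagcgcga
Sox11: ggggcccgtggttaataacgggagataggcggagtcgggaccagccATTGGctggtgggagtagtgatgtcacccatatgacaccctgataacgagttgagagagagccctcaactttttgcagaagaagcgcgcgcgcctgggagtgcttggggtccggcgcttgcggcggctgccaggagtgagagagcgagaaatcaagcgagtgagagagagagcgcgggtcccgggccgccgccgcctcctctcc
The motifs searched, each on both strands and none held within another, were ACAAAG, a form of the SOX site, its variant ACAATG, the octamer of POU factors (ATTTGCAT), CCAAT itself, and the core of the TATA box (TATAAA). Only CCAAT was found in these windows, with 2 matches for Sox1, 1 for Sox2, 3 for Sox4 and 1 for Sox11. Counted upstream from the start site, the plus-strand match nearest to the start of Sox1 covers bases 13 to 9. Of 54747 gene windows of the same length, 33.5% hold CCAAT, 18.9% and 13.3% the SOX forms in the order given, 2.03% the octamer and 16.3% the TATA core. The GC content of the windows was 60.0% for Sox1, 70.8% for Sox2, 52.0% for Sox4 and 62.8% for Sox11.

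Among the SoxB1 genes, Sox1 and Sox2 were high in radial glia-like nuclei and in forebrain inhibitory neuron-like nuclei, dividing or not, and low in cortical excitatory neuron-like nuclei. Sox1, the member of the group most restricted to the neural lineage, reached 84.6 CPM (55.3 to 124) and 74.9 CPM (46.4 to 115) in dividing forebrain inhibitory neuron-like nuclei. It stood at 55.8 and 59.0 CPM in forebrain inhibitory neuron-like nuclei that were not dividing, and at 43.8 CPM (33.1 to 56.8) and 34.9 CPM (25.7 to 46.3) in radial glia-like nuclei. In cortical excitatory neuron-like nuclei it was 7.08 and 6.33 CPM. Sox1 thus had the same class at the top in both libraries and was low in the cortical class in both.

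Sox2, a core factor of neural stem cells, was at 53.1 CPM (41.3 to 67.4) and 66.2 CPM (53.3 to 81.2) in radial glia-like nuclei and at 69.5 and 90.9 CPM in dividing ones. In forebrain inhibitory neuron-like nuclei it was at 69.2 and 64.1 CPM, and in their dividing counterparts at 87.8 and 103 CPM. Levels in cortical excitatory neuron-like nuclei were 16.9 and 12.7 CPM. The forebrain inhibitory neuron-like class therefore lay as high as the radial glia-like class, and its library range overlapped that of radial glia-like nuclei. In intermediate progenitor-like nuclei, which stand between radial glia and cortical neurons, Sox2 had 9 UMIs (23.7 CPM) and 1 UMI (4.14 CPM). These counts were too few to order that class.

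Counts of Sox2 per nucleus were sparse. With each nucleus thinned to 1000 UMIs, 22 of 575 wildtype-labelled radial glia-like nuclei (3.83%, 2.41 to 5.74) and 33 of 532 knockout-labelled ones (6.20%, 4.31 to 8.60) held a Sox2 UMI. Endothelial cell-like nuclei, a class that should lack the gene, had it in 1 of 33 (3.03%) and in 0 of 43, which allows a share of up to 8.22% by the exact bound. Fibroblast-like nuclei had it in 0 of 86 and 1 of 76. Before thinning, the median depths of these nuclei were 2035 and 2295 UMIs for radial glia-like, 2778 and 2621 for endothelial cell-like and 2464.5 and 2865 for fibroblast-like nuclei. With so few endothelial cell-like nuclei, a share above the background of free RNA was not detectable against that class, and the CPM is the better measure here.

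Sox3, the X-linked SoxB1 gene, had 90 and 74 UMIs over all kept nuclei. It was at 7.82 and 8.0 CPM in radial glia-like nuclei, from 10 and 11 UMIs, and at 8.06 and 7.37 CPM in forebrain inhibitory neuron-like nuclei. Of 15 pairs of neighbours in its order of 16 classes, 13 overlapped between libraries, so the order of Sox3 was not resolved at this depth. For Sox1 and Sox2, 12 and 14 of the 15 neighbouring pairs overlapped. For Sox1, the neighbours that stood apart included dividing and other forebrain inhibitory neuron-like nuclei. For Sox2 they were dividing radial glia-like and forebrain inhibitory neuron-like nuclei. Standing apart means only that the library values of the classes did not overlap. The counting intervals of both pairs overlapped in each library, as 45.8 to 101 and 56.5 to 83.9 CPM for Sox2 in the wildtype-labelled one.

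**Figure D1:**
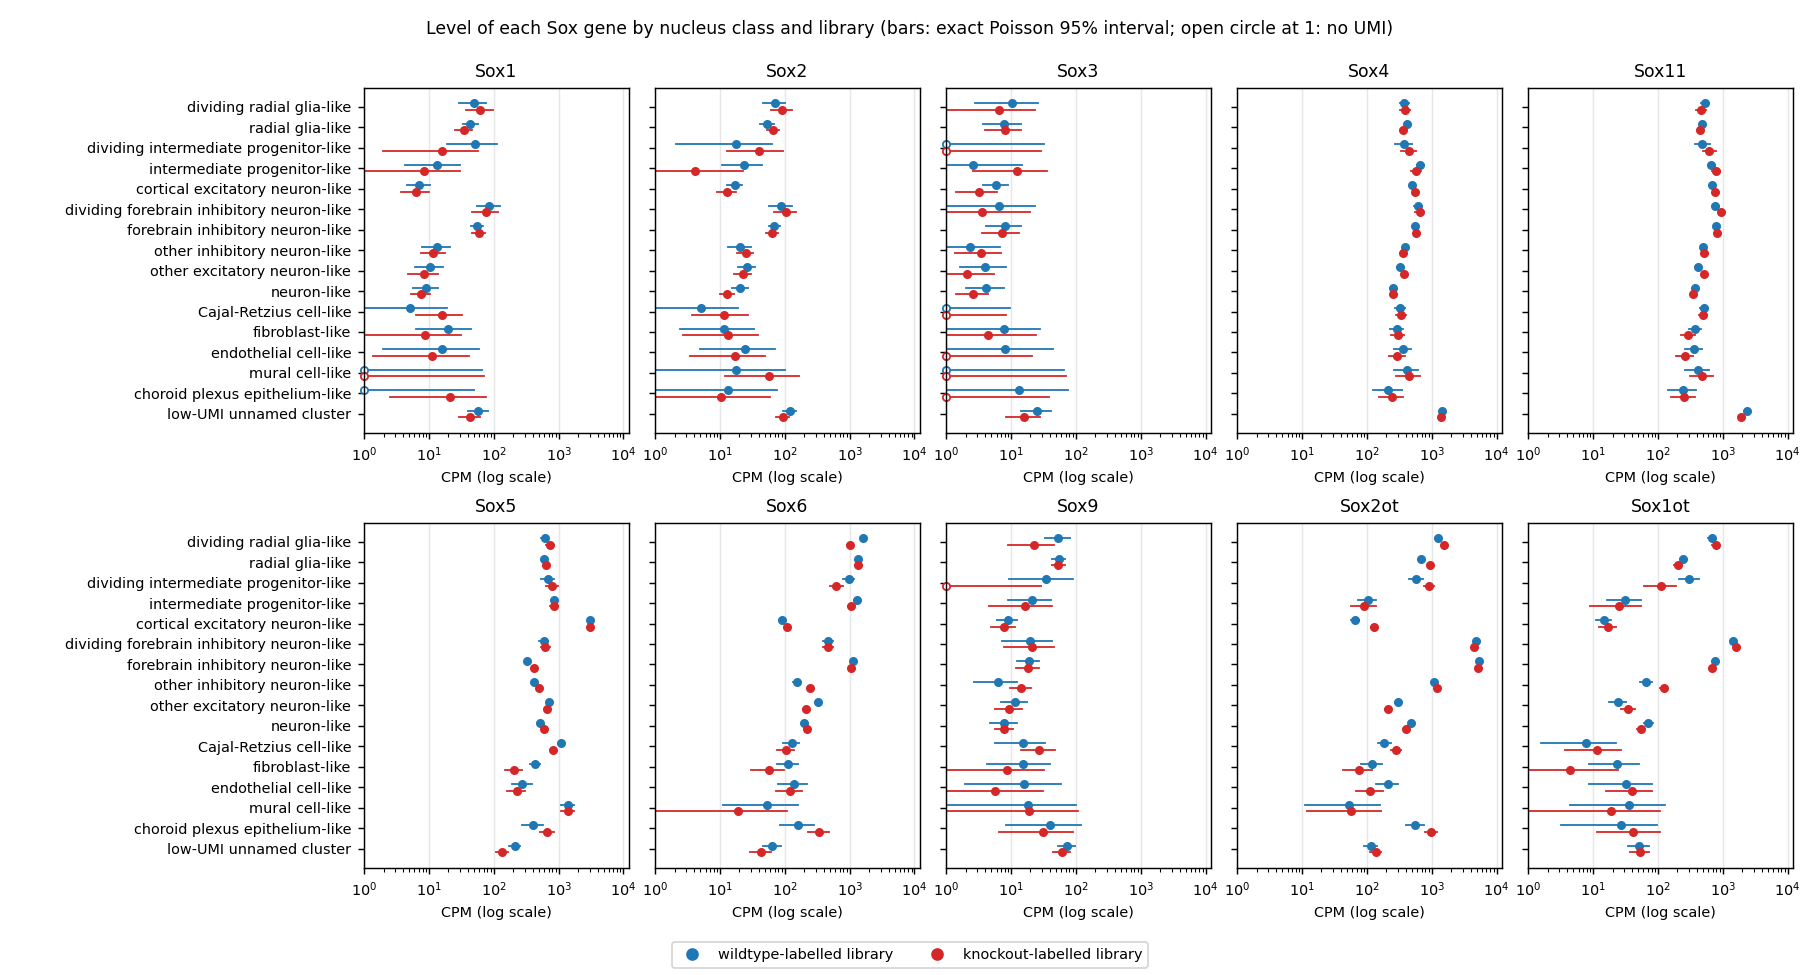
Level of each Sox gene in 16 classes of nuclei, in CPM on a log axis, with 1 point per library (blue wildtype-labelled, red knockout-labelled) and bars for the exact Poisson 95% interval. Sox5 peaks in cortical excitatory neuron-like nuclei (3028 and 3003 CPM) and Sox2ot in forebrain inhibitory neuron-like nuclei (5386 and 5228 CPM). Sox4 and Sox11 vary less than Sox5 or Sox2ot between the named classes.

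The SoxC genes varied less than Sox5 or Sox2ot across the named classes. Sox4 was at 665 CPM (586 to 752) and 572 CPM (480 to 675) in intermediate progenitor-like nuclei, at 504 and 545 CPM in cortical excitatory neuron-like nuclei and at 419 and 358 CPM in radial glia-like nuclei. Its lowest class among progenitors and neurons was the general neuron-like class, at 255 and 256 CPM. That class had the highest median UMI counts of the neuron-like classes, 3583 and 4298.5.

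Sox11 had a similar order. It reached 774 CPM (679 to 879) and 949 CPM (839 to 1070) in dividing forebrain inhibitory neuron-like nuclei and 788 and 807 CPM in those not dividing. In cortical excitatory neuron-like nuclei it was at 694 and 774 CPM, in radial glia-like nuclei at 483 and 441 CPM and in the general neuron-like class at 371 and 352 CPM. Both SoxC genes were thus somewhat higher in both neuron classes of the forebrain than in radial glia-like nuclei. Over 22 sums of a class in a library (11 classes), Sox4 and Sox11 had a Pearson correlation of 0.929 on the log2 scale. These points share 2 libraries and differ in depth, and the value is a description. Within forebrain inhibitory neuron-like nuclei at 1000 UMIs, Sox11 was found in 55.6% (49.9 to 61.2) of wildtype-labelled nuclei with Sox4 and in 52.0% (47.3 to 56.7) of those without. In the knockout-labelled library the shares were 57.3% and 54.3%, so the intervals with and without Sox4 overlapped and a link inside this class was not detectable at this depth.

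The balance of SoxB1 to SoxC UMIs differed between classes. The log2 ratio of the sums was -3.11 (-3.38 to -2.85) and -2.87 (-3.13 to -2.63) in radial glia-like nuclei, against -5.32 and -5.89 in cortical excitatory neuron-like nuclei and -5.08 (-5.93 to -4.34) and -5.78 (-7.23 to -4.64) in intermediate progenitor-like nuclei, the last pair from 15 and 6 SoxB1 UMIs. Forebrain inhibitory neuron-like nuclei, at -3.32 and -3.40, lay close to radial glia-like nuclei. The level of this ratio depends on how well each gene is captured, so only its differences between classes are read.

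Sox5, a SoxD gene known in the cortex for neurons of the deep layers, was highest in cortical excitatory neuron-like nuclei, at 3028 CPM (2972 to 3085) and 3003 CPM (2940 to 3067). The next class was mural cell-like, at 1387 and 1395 CPM from 77 and 73 UMIs. Cajal-Retzius cell-like nuclei followed with 1109 and 818 CPM, and intermediate progenitor-like nuclei with 849 and 841 CPM. Radial glia-like nuclei had 596 and 638 CPM and forebrain inhibitory neuron-like nuclei 327 and 416 CPM. The cortical class stood apart from all others in both libraries.

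Within the cortical class Sox5 was uneven. Cluster c8, in which Tbr1, Fezf2 and Bcl11b, markers of deep-layer neurons, passed the naming threshold, had 6109 and 5603 CPM. Cluster c11 had 2806 and 2651 CPM. Cluster c2, with Unc5d among its leading genes, had 1422 and 1275 CPM, and cluster c10 had 1408 and 1460 CPM. The order c8, c11 and then the other pair was the same in both libraries.

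Sox6, the SoxD partner, had another pattern, low in the cortical class where Sox5 peaked. It was at 1366 CPM (1303 to 1432) and 1331 CPM (1271 to 1394) in radial glia-like nuclei, at 1304 and 1065 CPM in intermediate progenitor-like nuclei and at 1125 and 1056 CPM in forebrain inhibitory neuron-like nuclei. In cortical excitatory neuron-like nuclei it was at 89.5 and 109 CPM. Dividing forebrain inhibitory neuron-like nuclei held 468 and 464 CPM, below the class that was not dividing.

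The forebrain inhibitory neuron-like class was split by Sox6. Cluster c3, which had Lhx6, a factor of interneurons born in the medial ganglionic eminence, among its leading genes, held 1658 and 1641 CPM. Cluster c9, with Drd2, a dopamine receptor of striatal neurons, among its leading genes, held 179 and 101 CPM. In log2 the difference was 3.21 (2.91 to 3.52) and 4.02 (3.62 to 4.45). Sox5 was also higher in c3, at 399 and 536 CPM against 199 and 221 CPM. These were the only 2 of 8 members tested that were 2-fold or more higher in c3 in both libraries, where 2.94% of 5548 genes were, and 0 members were lower, against 2.11% of genes. A gene was tested where it had at least 100 UMIs in the nuclei compared.

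Across radial glia-like sub-clusters Sox6 varied from 947 to 1758 CPM. Dividing radial glia-like nuclei fell into sub-cluster p4, with 2098 and 1661 CPM of Sox6, and p6, with 553 and 441 CPM. The same pair was ordered the other way for Sox1ot, at 256 and 150 CPM in p4 against 1594 and 1354 CPM in p6. Sox2ot too was higher in p6, at 2358 and 2391 CPM against 727 and 660 CPM.

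Within single nuclei of the radial glia-like class at 1000 UMIs, 65.7% (59.2 to 71.7) and 62.9% (55.9 to 69.4) of nuclei with a Sox5 UMI held Sox6, as did 69.3% and 69.6% of those without. In cortical excitatory neuron-like nuclei the shares were 5.93% (4.62 to 7.48) and 6.56% (4.91 to 8.56) with Sox5, against 11.4% (8.23 to 15.4) and 11.9% (8.11 to 16.6) without. A Sox6 UMI was thus less frequent per nucleus with Sox5 than without, by intervals that did not overlap in the wildtype-labelled library and overlapped slightly in the other, although 66 of the 104 and 50 of the 79 cortical nuclei with Sox6 also held Sox5. Over the whole cortical class the Sox6 share was 7.20% and 7.85%, beside 9.30% and 5.26% in fibroblast-like and 9.09% and 6.98% in endothelial cell-like nuclei, whose median depths are given with Sox2. The cortical shares are therefore at background and are read neither as expression nor as a link with Sox5. By CPM, cluster c2, lower in Sox5, had 219 and 220 CPM of Sox6, against 41.2 and 85.9 CPM in c8.

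Sox9, the SoxE gene of radial glia and later astrocytes, was at 54.7 CPM (42.6 to 69.1) and 53.8 CPM (42.2 to 67.5) in radial glia-like nuclei. It was at 18.8 and 18.4 CPM in forebrain inhibitory neuron-like nuclei, 8.98 and 7.74 CPM in cortical excitatory neuron-like nuclei and 7.94 and 7.89 CPM in the general neuron-like class. Dividing radial glia-like nuclei had 54.1 and 22.7 CPM from 21 and 7 UMIs, counts too low to place that class.

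Sox2ot, a transcript spread over 631 kb around Sox2, was highest among the named classes in forebrain inhibitory neuron-like nuclei, with 5386 CPM (5269 to 5506) and 5228 CPM (5107 to 5352). Dividing forebrain inhibitory neuron-like nuclei held 4876 and 4550 CPM, and dividing radial glia-like nuclei 1243 and 1565 CPM. Other inhibitory neuron-like nuclei held 1101 and 1203 CPM. Their marker list shares Gad1 and Gad2 with the forebrain inhibitory list, which summed to 1131 and 1101 CPM in them. Their Sox2ot level is therefore not read as one from outside the forebrain. Radial glia-like nuclei held 685 and 929 CPM. In cortical excitatory neuron-like nuclei the level was 65.9 and 131 CPM, and in intermediate progenitor-like nuclei 103 and 91.1 CPM. Sox2ot was thus high in the forebrain inhibitory classes and low in cortical excitatory neuron-like nuclei and in intermediate progenitor-like nuclei that were not dividing. Dividing intermediate progenitor-like nuclei, 35 and 36 in number, held 575 and 914 CPM, a range that overlapped that of radial glia-like nuclei.

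The same division was seen per nucleus. At 1000 UMIs, 84.9% (82.2 to 87.4) and 84.3% (81.3 to 87.1) of forebrain inhibitory neuron-like nuclei held a Sox2ot UMI, against 40.3% and 46.6% of radial glia-like and 3.04% and 4.47% of cortical excitatory neuron-like nuclei. Fibroblast-like nuclei, a class outside the neural lineage, had shares of 9.30% and 6.58%, so the cortical share was at or below background and is not read as expression. Median depths before thinning were 1713 and 1868.5 UMIs in the forebrain inhibitory neuron-like class and 2250 and 2444 in the cortical class. Without thinning the shares were 89.3% and 88.7% in the former and 7.74% and 9.13% in the latter.

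Sox2ot and the factor inside it did not have the same order of classes. Sox2 in radial glia-like nuclei was as high as in forebrain inhibitory neuron-like nuclei, while Sox2ot was several-fold lower there. Within forebrain inhibitory neuron-like nuclei at 1000 UMIs, Sox2 was found in 43 of 648 wildtype-labelled nuclei with Sox2ot (6.64%, 4.84 to 8.83) and in 1.74% (0.211 to 6.14) of those without. In the knockout-labelled library these were 37 of 533 (6.94%, 4.93 to 9.44) and 3.03% (0.629 to 8.60). In radial glia-like nuclei Sox2 was found in 3.45% and 5.65% of nuclei with Sox2ot, and in 4.08% and 6.69% of those without. All of these pairs of intervals overlapped, so a link between the transcripts in the same nucleus was not detectable at this depth.

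Sox1ot, a transcript spread over 113 kb around Sox1, was also high in the inhibitory classes of the forebrain. It was at 1428 CPM (1298 to 1568) and 1620 CPM (1474 to 1776) in dividing forebrain inhibitory neuron-like nuclei, and at 748 and 679 CPM in those not dividing. In dividing radial glia-like nuclei it was at 680 and 779 CPM against 245 and 203 CPM in the others of that type. That difference lay in sub-cluster p6, since p4, at 256 and 150 CPM, was near the nuclei that were not dividing. The 12 dividing markers summed to 4881 and 5453 CPM in p4 and to 3049 and 2732 CPM in p6. Cortical excitatory neuron-like nuclei held 14.7 and 16.9 CPM. Radial glia-like sub-clusters ranged from 12.8 to 669 CPM, a wider spread than that of Sox6.

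Sox1ot was found more often in nuclei that also held Sox2ot. In forebrain inhibitory neuron-like nuclei at 1000 UMIs, Sox1ot was found in 45.8% (41.9 to 49.8) of wildtype-labelled nuclei with Sox2ot and in 17.4% (11 to 25.6) of those without. The knockout-labelled shares were 41.7% (37.4 to 46.0) and 16.2% (9.53 to 24.9). In radial glia-like nuclei they were 22% against 11.1%, and 21.8% against 12.3%. The intervals of nuclei with and without Sox2ot did not overlap in forebrain inhibitory neuron-like nuclei of either library. Nuclei of a class differ in cluster, and the part of that in these shares was not tested.

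**Figure D2:**
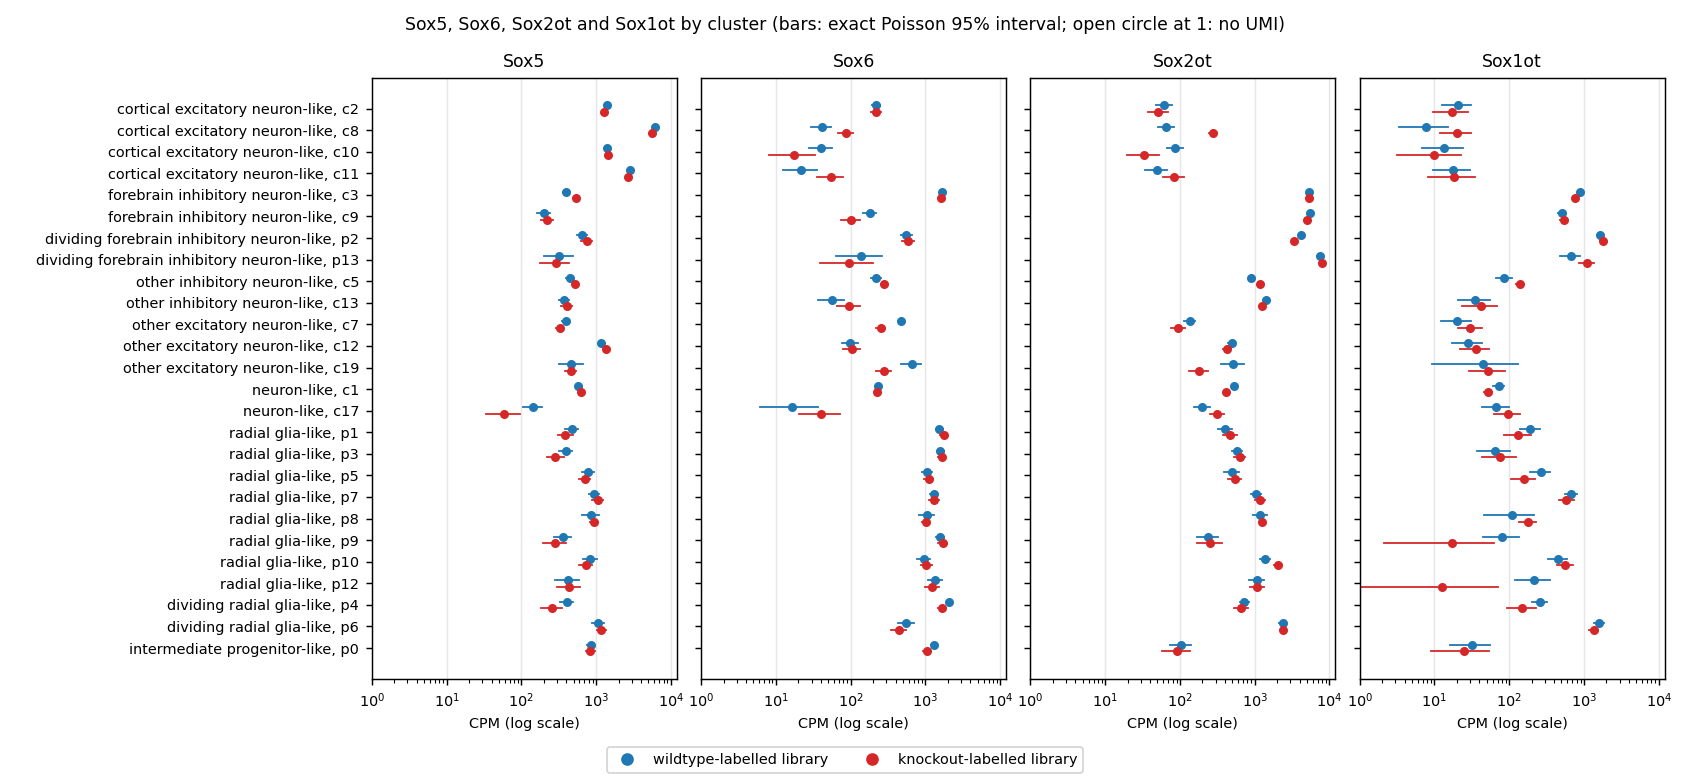
Level of Sox5, Sox6, Sox2ot and Sox1ot in each cluster of the progenitor and neuron classes, in CPM on a log axis, 1 point per library with the exact Poisson 95% interval. Sox5 is highest in c8 (6109 and 5603 CPM), Sox6 separates c3 from c9, and Sox1ot separates p6 from p4.

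Some other genes of these loci had patterns like that of the gene they overlap, and others did not. Gm38505, on the opposite strand within Sox2ot, was at 4687 and 4547 CPM in forebrain inhibitory neuron-like, 189 and 358 CPM in radial glia-like and 38.9 and 110 CPM in cortical excitatory neuron-like nuclei. Gm45025, opposite to Sox6, was at 238 and 217, 267 and 242, and 8.98 and 10.6 CPM in the same classes. BC006965, opposite to Sox9, was at 39.9 and 41.4 CPM in radial glia-like and 3.36 and 2.21 CPM in forebrain inhibitory neuron-like nuclei. Whether the counting used the strand is not given in the sources used here, so reads of such partners, and those of Sox2 and Sox1 inside their overlapping transcripts, may be divided between features in either direction. 1110004F10Rik, also opposite to Sox6, was nearly even, at 114 and 127 CPM in forebrain inhibitory neuron-like, 106 and 111 CPM in radial glia-like and 73.8 and 81.6 CPM in cortical excitatory neuron-like nuclei. These genes were named after their values were seen.

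The patterns were compared with those of all other genes as a description. Over the 22 sums, the genes most like Sox1 were Sox1ot (Pearson correlation 0.932), Sox2 (0.92) and Gm42695 (0.918), a noncoding gene opposite to Sox2ot. Sox2 was closest to Sox1ot (0.933), Gm42695 (0.932) and Sox1. Sox2ot was closest to Sfta3-ps (0.939), Gm42692 (0.933), which lies within Sox2ot, and Sp8 (0.926), a factor of interneurons. Sox1ot was closest to Gm42695 (0.969), Gm42692 (0.942) and Sox2. Sox1, Sox2 and Sox1ot were therefore among one another's nearest genes, except that Sox1 was not among the 3 of Sox1ot.

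For the remaining members the nearest genes were others. Sox4 was closest to Stmn1 (0.952), a regulator of microtubules, Sox11 and Dnajb6 (0.926), and Sox11 to Stmn1 (0.932), Sox4 and Mex3a (0.898). Near Sox5 were Neurod2 (0.859), a cortical neuron factor that is among the markers that named the cortical class, and Znrf2 (0.852). Sox6 was closest to Gm45025 (0.982), Cdk17 (0.919) and Ckb (0.859). Sox9 was closest to Rfx4 (0.881), Arhgef26 (0.862) and Bcan (0.86), and Sox3 to Ppp4c (0.829), Naxd (0.827) and Atp5a1 (0.818), a match that rests on few UMIs.

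Radial glia-like nuclei were compared with all neuron-like nuclei, that is the cortical excitatory, forebrain inhibitory, other inhibitory, other excitatory and general classes summed. A member was called where it was 2-fold or more apart in both libraries. Sox9 was higher in radial glia-like nuclei by 2.42 (1.97 to 2.87) and 2.40 (1.97 to 2.82) on the log2 scale, Sox6 by 2.15 (2.07 to 2.24) and 2.23 (2.14 to 2.31), and Sox1 by 1.48 (1.02 to 1.92) and 1.38 (0.89 to 1.85). These 3 of 10 members were called higher, beside 10.7% of 14133 genes tested, and 0 were called lower, beside 11.8%. With nuclei thinned to 1000 UMIs Sox1 lost its call, at a mean of 1.05 over the libraries, and at clustering resolution 0.5 Sox5 was called lower, at -1.79.

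Sox2 missed the call narrowly, with log2 differences of 0.98 (0.58 to 1.37) and 1.62 (1.26 to 1.97), from 53.1 and 66.2 CPM against 27.0 and 21.5 CPM. Sox4, at 0.03 and -0.10, and Sox11, at -0.22 and -0.29, lay near 0. Sox5, at -1.21 (-1.32 to -1.11) and -0.78 (-0.88 to -0.68), was past 2-fold in the wildtype-labelled library only. The summed neuron-like level of Sox5, 1382 and 1095 CPM, holds the cortical class in the unequal shares given above. Sox2ot was at -0.65 and -0.02, and Sox1ot at 0.82 and 0.77. Sox2 was past the call under 5 of the other settings (given at the end).

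**Figure D3:**
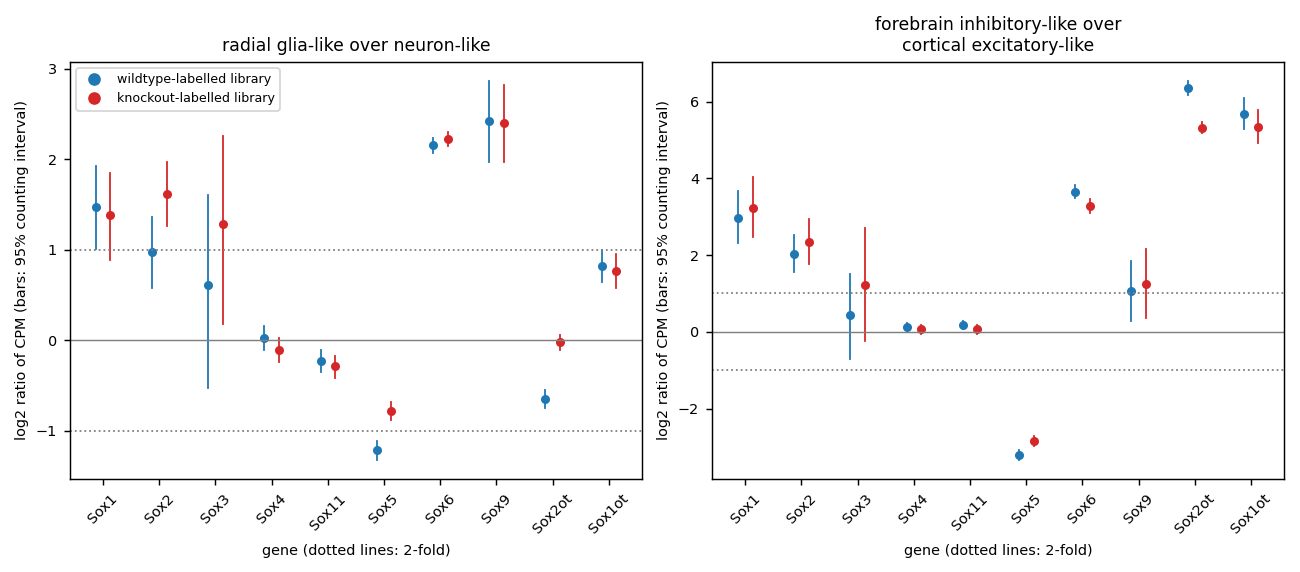
Log2 ratio of CPM for each Sox gene, radial glia-like over neuron-like nuclei (left) and forebrain inhibitory neuron-like over cortical excitatory neuron-like nuclei (right), 1 point per library with the 95% counting interval and dotted lines at 2-fold. Sox1, Sox6 and Sox9 lie above 2-fold on both sides, while Sox2ot and Sox1ot pass it only on the right, at 6.35 and 5.32 and at 5.67 and 5.33.

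Most members differed between the inhibitory and the excitatory branch of the forebrain. Of 9 tested, 6 were called higher in forebrain inhibitory neuron-like than in cortical excitatory neuron-like nuclei, beside 2.89% of 10152 genes. They were Sox2ot (6.35 and 5.32 on the log2 scale), Sox1ot (5.67 and 5.33), Sox6 (3.65 and 3.27), Sox1 (2.98 and 3.22), Sox2 (2.04 and 2.34) and Sox9 (1.07 and 1.25). The intervals of Sox9, 0.29 to 1.84 and 0.37 to 2.15, reached below 2-fold, from 28 and 25 UMIs in the inhibitory class. Its level there, 18.8 and 18.4 CPM, stood beside 15.6 and 8.80 CPM in fibroblast-like nuclei. Cortical levels of Sox1, Sox2 and Sox2ot were near those of fibroblast-like nuclei, at 19.5 and 8.80, 11.7 and 13.2, and 121 and 74.8 CPM. The sizes of these differences therefore depend on background, and only their direction is read. Sox5 alone was called lower, at -3.21 (-3.34 to -3.08) and -2.85 (-2.98 to -2.73), beside 5.47% of genes. The SoxC genes differed little, with Sox4 at 0.11 and 0.06 and Sox11 at 0.18 and 0.06. Genes on 1 locus, as Sox2 with Sox2ot and Sox1 with Sox1ot, are not independent in such a count.

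Between neighbouring classes single members were called. From radial glia-like to dividing radial glia-like nuclei, Sox1ot was the 1 of 9 members tested that was called, higher by 1.47 (1.23 to 1.71) and 1.94 (1.69 to 2.20), beside 1.83% of 6993 genes, and 0 were called lower, beside 2.22%. The Sox1ot call rests on sub-cluster p6, at 1594 and 1354 CPM, and not on p4, at 256 and 150 CPM. From forebrain inhibitory neuron-like nuclei to the dividing ones, Sox6 was the 1 of 8 called lower, at -1.26 and -1.19, beside 6.44% of 6492 genes. None of the 8 was called higher there, beside 5.24% of genes, and Sox1ot stood at 0.93 and 1.25. From cortical excitatory neuron-like to intermediate progenitor-like nuclei, Sox6 was higher by 3.86 and 3.28 and Sox5 lower, at -1.83 and -1.84, among 7 tested. The background was 4.79% of 9225 genes higher and 9.83% lower.

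Other SOX genes were taken from a list of 11, of which 5 had enough UMIs. Sox8, a SoxE gene, was higher in radial glia-like than in neuron-like nuclei by 1.37 and 2.89, Sox13, the third SoxD gene, by 2.78 and 2.35, and Sox21, a SoxB2 gene, by 1.55 and 1.86. Sox14, also SoxB2, was lower, at -1.02 and -2.71, and was at 39.1 and 41.7 CPM in other inhibitory neuron-like nuclei. Sox12, the remaining SoxC gene, was at -0.12 and -0.36, near its 2 relatives. The list thus had 3 of 5 genes called higher and 1 lower, beside 10.7% and 11.8% of all genes.

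Of 25 partner and target genes of SOX factors, 24 were tested, 11 were called higher in radial glia-like nuclei and 2 lower, beside the 10.7% and 11.8% of all genes given above. The largest differences were those of Gli3, a Hedgehog pathway factor, at 4.07 and 3.65, Slc1a3, a glial glutamate transporter, at 3.94 and 4.05, and Notch1, a receptor that maintains progenitors, at 3.73 and 3.28. Dcx, at -2.04 and -1.96, and Mapt, at -1.79 and -2.03, both genes of the neuronal cytoskeleton, were lower. Neurod1, the next in that direction, was at -1.43 and -0.63 and was not called. Of the 11 called higher, 6 are radial glia markers that named the class and 1 is an intermediate progenitor marker. Their direction is therefore in part set by the naming, and 1 of the 2 called lower is a class marker too. Between dividing and other forebrain inhibitory neuron-like nuclei, 20 of the 25 genes were tested. There 8 were called higher in the dividing nuclei and 0 lower, beside 5.24% and 6.44% of all genes.

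The cluster of low UMI counts divided the members by gene length. All 6 short factor genes were higher in it than in other nuclei, from 1.49 and 1.33 on the log2 scale for Sox1 to 2.25 and 2.11 for Sox3, and Sox11 reached 2353 and 1905 CPM there. The 4 long genes were all lower, Sox5 at -2.52 and -2.89, Sox6 at -2.87 and -3.23, Sox2ot at -3.20 and -2.84 and Sox1ot at -1.84 and -1.57. Over the 10 members, the correlation with the logarithm of gene length was -0.975 and -0.981 (Pearson), or -0.745 and -0.758 (Spearman), across genes that share the same nuclei.

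Gene length went with the level in that cluster over all genes as well. Among 2481 genes of 100 kb or more, the median log2 difference was -1.87 and -1.82, and 5.32% and 6.37% were higher in the cluster. Among 3626 genes under 10 kb, the median was 0.06 in both libraries and 50.7% were higher, so each short Sox gene lay above the median of genes of that length. The cluster took 10.3% of its UMIs from ribosomal protein genes, against 3.24% in radial glia-like sub-cluster p1, the next highest. Its erythroid marker list of 8 genes summed to 5364 and 4496 CPM, with 0 and 1 of the genes at 0, against 1108 and 845 CPM in radial glia-like nuclei. The radial glia list summed to 4428 and 4654 CPM in the cluster, against 5383 and 5829 CPM in radial glia-like nuclei. The neuron list summed to 5855 and 6252 CPM, against 6314 and 6266 CPM in cortical excitatory neuron-like nuclei. The choroid plexus list reached 1289 and 1736 CPM, against 240 and 265 CPM in that cortical class. The part of these in the levels was not tested.

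**Figure D4:**
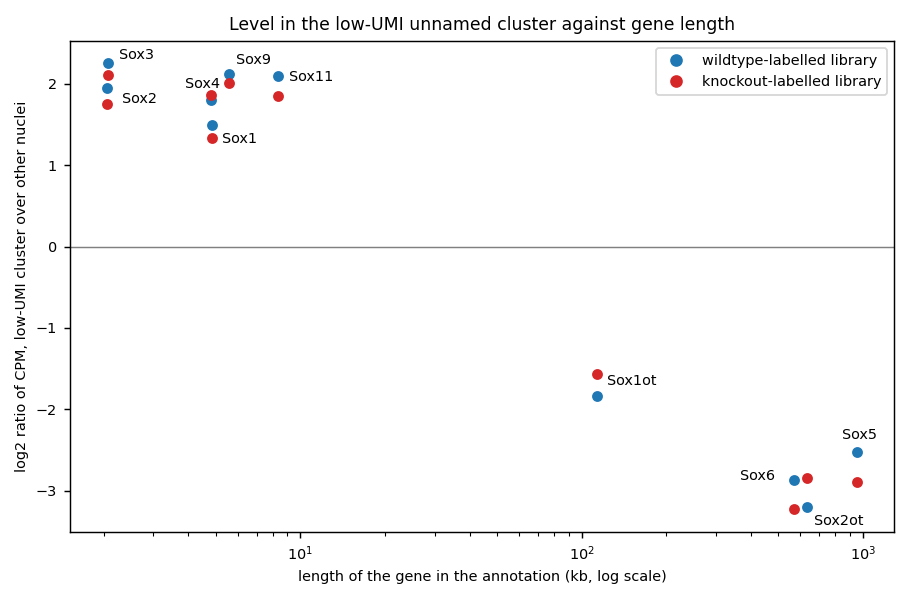
Log2 ratio of CPM in the low-UMI cluster over all other nuclei against the length of each Sox gene in kb (log axis), 1 point per gene and library. The 6 short genes lie above 0 and the 4 long ones below, Sox1ot (113 kb) at -1.84 and -1.57 nearest to 0.

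Between the libraries no member passed 1.5-fold over all kept nuclei. Sox5 was at 1165 CPM (1148 to 1183) and 964 CPM (949 to 979), or -0.27 (-0.30 to -0.24) as the log2 ratio of the knockout-labelled to the wildtype-labelled library. Sox6 was at 453 and 388 CPM, a ratio of -0.22, and Sox1ot at 176 and 151 CPM, also -0.22. Sox2ot, at 1018 and 950 CPM, had -0.10, Sox4, at 455 and 430 CPM, -0.08, and Sox11, at 624 and 588 CPM, -0.09. Sox1 was at 22.04 and 18.3 CPM (-0.27), Sox2 at 34.4 and 30.5 CPM (-0.17) and Sox9 at 19.1 and 17.1 CPM (-0.16). The largest ratio was that of Sox3, -0.52 (-0.98 to -0.06), from 90 and 74 UMIs.

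All 10 members were lower in the knockout-labelled library, with a median log2 ratio of -0.20, where the median of all 15013 genes tested was -0.016. A median below 0 means that genes lower in this library were at least as common as higher ones. Members that share a locus or a class are not independent in this count, so it is not read as a shift of the family. With each nucleus thinned to 1000 UMIs the direction of Sox2 turned, to 0.19. None of the 10 was past 1.5-fold, beside 2.75% of genes (2.08% higher and 0.673% lower). The median was -0.021 for the 5 other SOX genes and -0.09 for the 24 partners, of which none passed either. With the classes weighted alike in both libraries, the ratio of Sox5 was 0.024, of Sox6 -0.095 and of Sox2ot 0.012, and those of Sox1, Sox2, Sox3 and Sox9 were -0.14, -0.11, -0.43 and -0.10. The makeup of the libraries differed, with fewer cortical excitatory neuron-like and more low-UMI nuclei in the knockout-labelled one. With the low-UMI cluster left out, all 10 ratios moved by less than their counting interval. Which classes moved the weighted ratios was not tested.

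**Figure D5:**
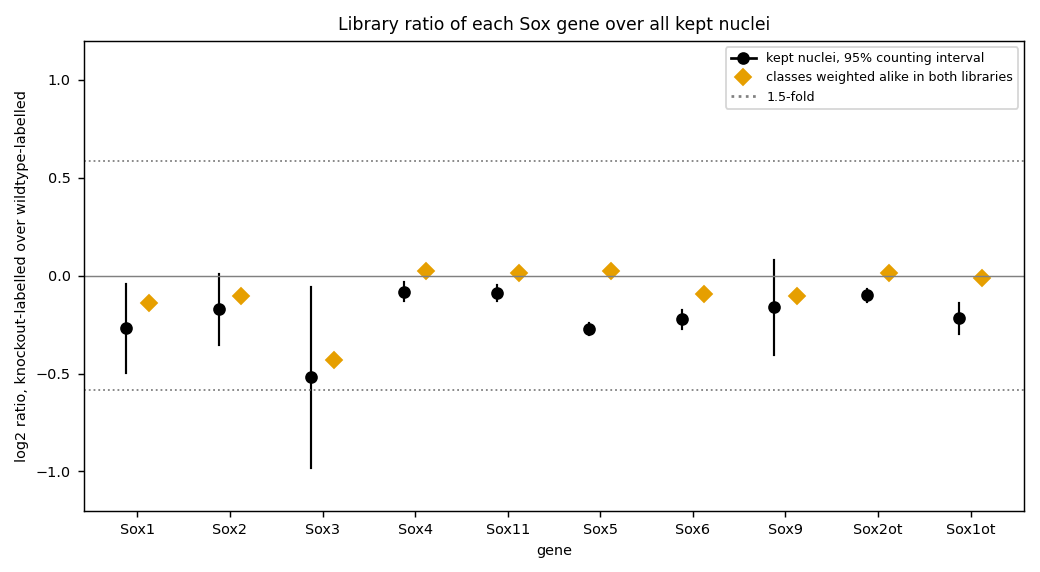
Log2 ratio of the knockout-labelled over the wildtype-labelled library for each Sox gene, over all kept nuclei (black, with the 95% counting interval) and with classes weighted alike (orange), dotted lines at 1.5-fold. All black points lie between 0 and -0.52, and the orange points of Sox4, Sox5, Sox11, Sox2ot and Sox1ot lie within 0.024 of 0.

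Within classes, 67 ratios of a member could be tested over 11 classes, and 8 were past 1.5-fold in either direction. In radial glia-like nuclei 0 of 9 passed, beside 4.4% of 5955 genes. Sox2ot came nearest there, at 0.44 (0.31 to 0.56), with sub-cluster p8, where it is high, holding 27 wildtype-labelled and 111 knockout-labelled nuclei. In forebrain inhibitory neuron-like nuclei 0 of 8 passed, beside 2.34% of 5548 genes, in intermediate progenitor-like nuclei 0 of 4, beside 4.43%, and in dividing forebrain inhibitory neuron-like nuclei 0 of 6, beside 3.12%.

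In cortical excitatory neuron-like nuclei 1 of 6 passed, beside 1.57% of 8845 genes. Sox2ot, with 242 and 371 UMIs, stood at 65.9 CPM (57.8 to 74.7) against 131 CPM (118 to 145), and its log2 ratio was 0.99 (0.75 to 1.23). Cluster c8 carried it, with 69 and 268 UMIs, 66.1 and 281 CPM. In c8, 5 of 361 wildtype-labelled nuclei held 47.8% of the Sox2ot UMIs and 5 of 277 knockout-labelled nuclei 50.4%. Without c8 the ratio was -0.27, and with doublets kept it was -0.31. The 9 forebrain inhibitory neuron markers summed to 88.1 and 155 CPM in c8, with all 9 detected, against 3572 and 3513 CPM in the forebrain inhibitory neuron-like class, and their part in the ratio was not tested.

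In dividing radial glia-like nuclei 1 of 6 passed, beside 6.59% of 1487 genes. Sox6 was at 1609 CPM (1485 to 1740) and 1023 CPM (913 to 1142), a ratio of -0.65 (-0.85 to -0.46). Its high sub-cluster p4 held 101 and 49 nuclei and its low sub-cluster p6 63 and 80. The ratio was -0.33 without p4 and -0.34 without p6, short of 1.5-fold both times, and -0.29 with doublets kept.

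In other inhibitory neuron-like nuclei 2 of 6 passed, beside 3.3% of 6308 genes. Sox6 was at 156 CPM (136 to 180) and 248 CPM (226 to 270), a ratio of 0.66 (0.42 to 0.91), and Sox1ot at 66.5 CPM (53.1 to 82.2) and 123 CPM (108 to 139), a ratio of 0.89 (0.53 to 1.26). Cluster c5, with Ecel1 and Pax2 among its leading genes, held 288 and 528 nuclei and was higher in both genes than c13. Without c5 the ratio of Sox1ot was 0.25. That of Sox6 was 0.36 without c13 and, from 27 and 34 UMIs, 0.76 without c5. With doublets kept the ratio of Sox6 was 0.12. The 5 highest nuclei held 32.5% and 18.2% of the Sox6 UMIs of this class, and 35.3% and 22.3% of its Sox1ot UMIs.

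In other excitatory neuron-like nuclei 1 of 6 passed, beside 3.58% of 6680 genes. Sox6 was at 326 CPM (300 to 354) and 210 CPM (190 to 231), a ratio of -0.64 (-0.83 to -0.45). Cluster c7, with Pou4f1 and Tfap2d among its leading genes, held it, and without c7 the ratio was 0.13. The general neuron-like class had 1 of 7 past 1.5-fold, beside 2.81% of 9670 genes. This was Sox2, at 20.5 CPM (15.2 to 27.1) and 12.9 CPM (9.97 to 16.5), from 49 and 64 UMIs. Its 5 highest nuclei held 40.8% and 17.2% of these UMIs. The ratio of -0.66 was 0.40 without cluster c1 and -0.79 without c17.

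The remaining ratios came from small counts too. Sox2ot in Cajal-Retzius cell-like nuclei, 1 of 4 tested beside 7.27% of 1692 genes, had 72 and 124 UMIs and a ratio of 0.60 (0.17 to 1.04), and its 5 highest nuclei held 61.1% and 58.9% of the UMIs. The sign turned with doublets kept (-0.15) and at resolution 2 (-0.59). Sox5 in the low-UMI cluster, 1 of 5 beside 3.73% of 2521 genes, had 124 and 100 UMIs and a ratio of -0.64 (-1.03 to -0.25).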

How the data were processed

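The values used are UMI counts as deposited, with no normalization, and per the file headers Cell Ranger 6.1.1 wrote the matrices. The submitters' processing notes name Cell Ranger 3.0.1, STAR and GRCm39. Whether intronic reads and the strand were used is not given in the sources used here. Gene positions come from GENCODE M39 on GRCm39, where 98.8% of features matched.

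Nuclei were kept with at least 500 genes and at most 5% of UMIs from genes whose symbol begins with mt-. This left 6686 and 6680 nuclei. Scrublet called 1 doublet per library and had not worked, so the 8% with the highest scores were removed, a rule set after that was seen. The kept nuclei held 14652914 and 17272874 UMIs. They were clustered in scanpy 1.11.5 with 2000 variable genes, 30 components, 15 neighbours and Leiden resolution 1. The variable genes excluded the 10 Sox genes, Cav1, mt- genes and sex-linked genes (Xist, Tsix and those on Y), but not genes that overlap the Sox genes. Progenitor clusters were clustered again.

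A name needed 3 markers at 2-fold over other clusters and at 1.5-fold within each library, and no more markers of another class among the 10 leading genes. Dividing nuclei had a median of the dividing markers at 4-fold or more. These thresholds were set after seeing the data. Members and lists were chosen with earlier results of these data known. Levels carry exact Poisson intervals, ratios exact conditional binomial intervals and shares Clopper-Pearson intervals. Only the ratios and their intervals were tested on simulated data, with Poisson counts that hold no spread between nuclei. Alternatives changed the doublet rule, the gene minimum, the scaling, the depth and the clustering. No p-value is given, since each genotype has 1 library. Beside the members, the text names SOX genes with at least 100 UMIs, the 3 partner genes with the largest difference each way, and the 3 genes most like each member by Pearson correlation of log2(CPM + 10) over classes of at least 50 nuclei. One gene near Sox5 is not reported here.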

Additional observations from a re-analysis of the deposited data

Results flagged for a closer look

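The ratio of Sox6 between the libraries had opposite signs in different classes. In other inhibitory neuron-like nuclei the log2 ratio of the knockout-labelled to the wildtype-labelled library was 0.66 (0.42 to 0.91). It was -0.65 (-0.85 to -0.46) in dividing radial glia-like nuclei, and the other excitatory neuron-like class had -0.64 (-0.83 to -0.45). The difference between these classes was not tested, since each genotype has 1 library. With doublets kept, the ratios were 0.12 in other inhibitory neuron-like and -0.29 in dividing radial glia-like nuclei, both short of 1.5-fold, and in the latter -0.43 at Leiden resolution 2. The signs also rest on single clusters. Without c7 the sign in other excitatory neuron-like nuclei turned. The ratio in dividing radial glia-like nuclei fell short of 1.5-fold without p4 and without p6, as did that in other inhibitory neuron-like nuclei without c13.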

How the results depend on the processing

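No paired analysis was possible because each genotype has 1 library. Counts over all settings were as follows. For the ratio between libraries over all nuclei, 66 of 80 values moved by less than their counting interval. For the difference between radial glia-like and neuron-like nuclei, 54 of 70 stayed on the same side of the 2-fold rule without moving past that interval. Within classes, 102 of 139 were alike, 11 fell short of 1.5-fold and 6 changed sign. Of the shares of nuclei, 107 of 120 moved, as a share rises with depth.

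The ratio between libraries was -0.32 for Sox5 with doublets kept. With a minimum of 1000 genes it was -0.014 for Sox2ot and -0.069 for Sox1ot. Thinned to 1000 UMIs per nucleus it was 0.19 for Sox2, -0.034 for Sox4, -0.24 for Sox5, -0.0064 for Sox11 and -0.068 for Sox2ot. With classes weighted alike, chosen after seeing the data, it was 0.024 for Sox4 and for Sox5, -0.095 for Sox6, 0.015 for Sox11, 0.012 for Sox2ot and -0.014 for Sox1ot.

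The difference between radial glia-like and neuron-like nuclei, as the mean of both libraries, passed 2-fold for Sox2 at 1.38 with doublets kept, 1.30 with a minimum of 1000 genes, 1.31 with the Sox genes among the variable genes, 1.34 at resolution 2 and 1.44 where each library was centred on its own means. Sox1ot passed at 1.08 with doublets kept and 1.10 with centring, and Sox3 at 1.08 with 1000 genes. At resolution 0.5 it was 0.27 for Sox4, -1.79 for Sox5, which then passed, -0.019 for Sox11, -0.98 for Sox2ot and 0.15 for Sox1ot. Thinned nuclei gave 1.05 for Sox1, no longer past the rule in both libraries, -0.79 for Sox2ot and 0.43 for Sox1ot.

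Signs changed for Sox2ot in Cajal-Retzius cell-like nuclei, at -0.15 with doublets kept and -0.59 at resolution 2, and in cortical excitatory neuron-like nuclei, at -0.31 with doublets kept and -0.27 without c8. They also changed for Sox2 in the general neuron-like class without c1 (0.40) and for Sox6 in other excitatory neuron-like nuclei without c7 (0.13). Where no cluster is named, the cause was not tested.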

Other observations

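A pair of small clusters that kept no name were high in some members. The cluster led by Pdgfra, with Lhfpl3 also among its leading genes, both of the list for oligodendrocyte precursors, held 3 wildtype-labelled and 14 knockout-labelled nuclei. Sox6 was at 4204 CPM (2989 to 5747) and 3738 CPM (3192 to 4349) there, above the 1366 and 1331 CPM of radial glia-like nuclei. Sox2ot was at 7869 and 6490 CPM. Sox10, a gene of the oligodendrocyte lineage, had 2 and 10 UMIs in these nuclei. Sox1ot was at 0 in the 3 wildtype-labelled nuclei and had 2 UMIs in the 14 others.

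The cluster led by Rspo2, a secreted activator of Wnt signalling, held 26 and 18 nuclei, with Wnt8b and Lmx1a among its leading genes. Sox2ot was at 4913 CPM (4369 to 5505) and 5181 CPM (4565 to 5856) there, near its level in forebrain inhibitory neuron-like nuclei. Sox1ot, which is high with Sox2ot in the inhibitory classes, was at 33.2 and 101 CPM from 2 and 5 UMIs. These clusters were singled out after their values were seen.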
